A study of Mus musculus with 4 samples.

Results

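The genes for the HMGA chromatin proteins (Hmga1 and Hmga2), the oncofetal RNA-binding proteins (Igf2bp1, Igf2bp2, Igf2bp3 and Lin28b) and the MYC transcription factors (Myc and Mycn) were examined in mouse lungs carrying 4T1 metastases. These 8 genes were picked by name from the 56748 genes of the count table, and 7 of them were among the 15320 genes that passed the expression filter. They were picked with the counts of this comparison already known. The differences between the groups for these 8 genes are therefore descriptions and carry no p-value.

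The comparison was between groups of 2 samples each. Female BALB/cJ mice, 7 weeks old, were injected with 2000000 4T1-FLuc cells by tail vein. 4T1 is a transplantable mouse line used as a model of triple-negative breast cancer, and FLuc is the luciferase used to image the metastases. The saline group is labelled both saline and PBS control. The ADC/cmLumiOpto group received the anti-CD276 antibody carrying the microtubule inhibitor mertansine (DM1), together with cmLumiOpto, a gene therapy that depolarizes mitochondria when the luminescent substrate ViviRen is given, carried by AAV in antibody-tagged exosomes and expressed from a cfos promoter described as cancer-selective. The labels give an ADC dose of 16 mg/kg, 3 weeks of treatment and the abbreviation Olap, whereas according to the methods the ADC was given at 8 mg/kg and ViviRen at 2 mg/kg. The methods do not mention Olap, and whether it stands for a further agent cannot be told here. Single-agent groups were not analysed here, so the parts of the combination cannot be told apart. The labels describe harvested tumor cells, while the methods describe dissociated lung tissue.

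Markers of lung cells were present in every sample. The summed level of 10 alveolar epithelial markers was 1687 and 388 CPM (read counts scaled to the TMM-normalized library size) in saline replicates 1 and 2, against 6106 and 5238 CPM in ADC/cmLumiOpto replicates 1 and 2. The 8 airway markers summed to 1158 and 86.6 CPM in the saline samples and to 6270 and 3003 CPM in the treated samples. Markers shared by 4T1 cells and lung epithelium (10 genes, among them the keratins Krt8 and Krt18) summed to 3183 and 3480 CPM in saline and to 3121 and 3026 CPM after treatment. The sum hides opposite directions, since 5 of these markers had a log2 fold change below 0 and 5 above. Total counts lay between 15263375 and 19675436, and 3 counts, taken as the floor for counting error only, correspond to between 0.146 and 0.202 CPM. The methods state 4 biological samples per group, and 2 per group were analysed here. Neither they nor the labels say outright that each sample was a separate mouse.

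HMGA proteins are small chromatin proteins that bind the minor groove of AT-rich DNA and are abundant in embryos, scarce in most adult tissues and abundant again in many carcinomas. The IGF2BP proteins bind messenger RNAs in the cytoplasm and protect them from decay, and LIN28 proteins bind the precursor of the microRNA let-7 and block its maturation. Mature let-7 in turn represses messenger RNAs that carry sites for it, HMGA2, IGF2BP1 and LIN28B being textbook examples, and MYC can drive transcription of LIN28B.

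The sequences by which let-7 recognizes messengers are shown because the HMGA, IGF2BP and LIN28 genes held matches to it in their 3′ UTRs. Myc and Mycn held no match of the form searched, and other forms of let-7 site were not searched. Mature microRNAs from RefSeq (GRCm38.p6) are given with the seed, bases 2 to 8, in capitals. Of 11 mature let-7 and miR-98 names in that table, 10 share the seed GAGGUAG, and let-7j differs in the last seed base.
mmu-let-7a-5p: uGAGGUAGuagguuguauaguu
mmu-let-7d-5p: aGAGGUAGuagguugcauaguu
mmu-miR-98-5p: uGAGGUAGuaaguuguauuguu
mmu-let-7j: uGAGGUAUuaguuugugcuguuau

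The reverse complement of the shared seed, CTACCTC, was searched on the sense strand of the longest annotated 3′ UTR of each gene (GENCODE M21, GRCm38). Hmga2, Igf2bp1 and Lin28b held 4 matches each, in 3′ UTRs of 3014, 6337 and 4445 bases. Hmga1, Igf2bp2 and Igf2bp3 held 1 match each, in 1183, 1784 and 2119 bases, while the short 3′ UTRs of Myc (466 bases) and Mycn (913 bases) held 0. At least 1 match was present in 9.02% of 21024 annotated 3′ UTRs, and 2 or more in 1.07%. These shares take no account of length, and the median 3′ UTR of tested genes was 1177 bases. Among other tested genes with 3′ UTRs of 1832 bases or more, 877 held a match and 3602 did not. The 4 matches of Hmga2 and the first match of the other genes follow, with the match in capitals. Each lies within a single stretch of the 3′ UTR, on the minus strand of the genome except for Hmga1, which is on the plus strand.
Hmga2 site 1 at chr10:120364224-120364253: agggggcgccgacattcaatttCTACCTCa
Hmga2 site 2 at chr10:120362987-120363016: caataatccccactcctcaataCTACCTCt
Hmga2 site 3 at chr10:120362549-120362578: ggacttcctgatttgcaaggaaCTACCTCc
Hmga2 site 4 at chr10:120361691-120361720: gttgtacaatcaaaacacactaCTACCTCt
Hmga1 site 1 at chr17:27563270-27563299: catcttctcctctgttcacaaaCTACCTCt
Igf2bp1 site 1 at chr11:95961778-95961807: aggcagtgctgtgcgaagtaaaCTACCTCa
Igf2bp2 site 1 at chr16:22059473-22059502: gagaaaaacacacaaataaaagCTACCTCa
Igf2bp3 site 1 at chr6:49086787-49086816: ttaaacgtgcatttttactcaaCTACCTCa
Lin28b site 1 at chr10:45381022-45381051: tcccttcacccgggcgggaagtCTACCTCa

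A match followed by A is the longer form of a let-7 site. This form made up 3 of the 4 matches of Igf2bp1, 1 of 4 in Hmga2, 1 of 4 in Lin28b and the single matches of Igf2bp2 and Igf2bp3. These matches are descriptions of the reference sequence, and mature microRNAs were not measured in the poly(A)-selected libraries.

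The levels of the 8 genes spanned the whole range of expressed genes. Per kilobase of gene length, the scale on which genes can be compared, the mean saline level was 232 CPM per kb for Hmga1, 63.5 for Myc, 31.99 for Hmga2, 15.2 for Igf2bp2 and 0.886 for Igf2bp1. Mycn at 0.193, Igf2bp3 at 0.102 and Lin28b at 0 CPM per kb closed the order. The first 5 genes kept apart from their neighbours in both saline samples, whereas the values of Mycn (0.285 and 0.102) and Igf2bp3 (0.130 and 0.0744) overlapped. In the treated samples the order of the first 5 was the same, at 117, 38.9, 15.5, 8.55 and 0.502 CPM per kb. Hmga1 lay above 98.7% of tested genes in the saline samples on this scale, Myc above 94.8%, Hmga2 above 88.7% and Igf2bp1 above 19.6%.

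**Figure D1:**
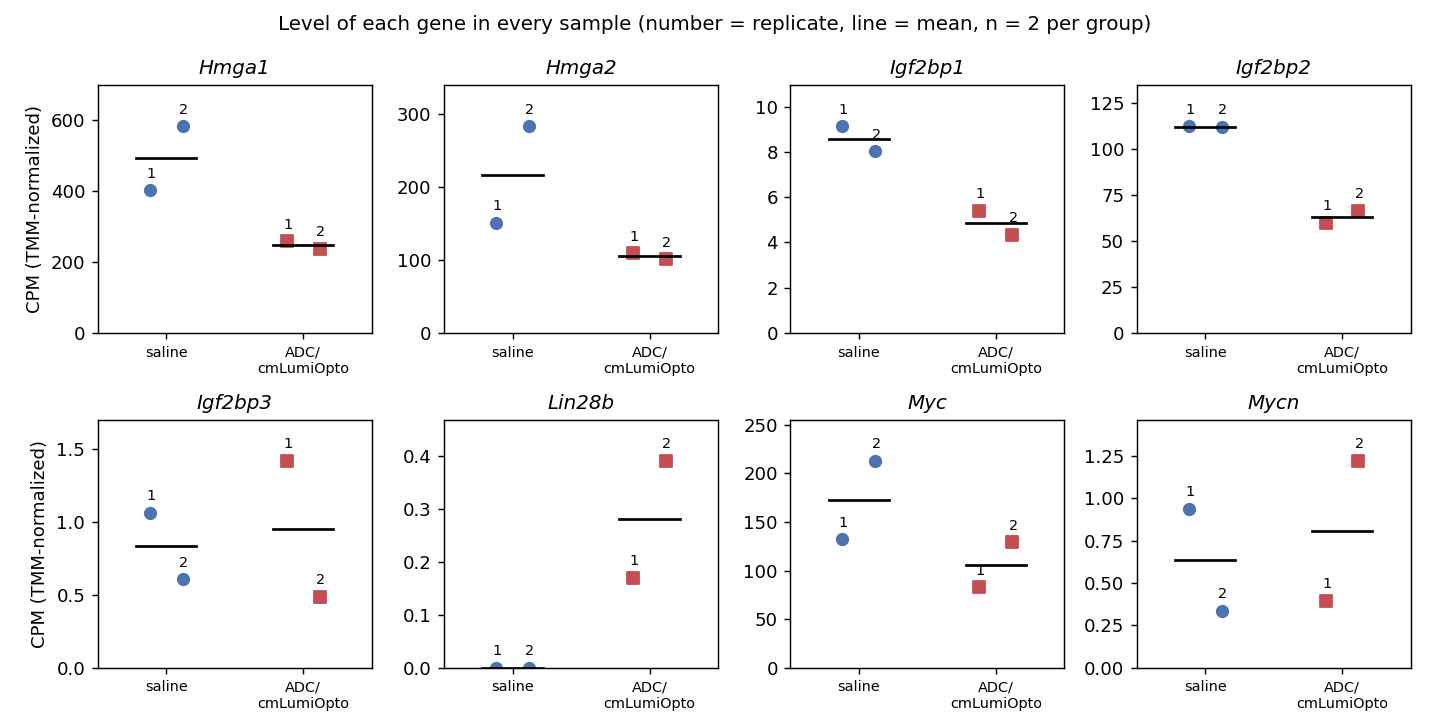
TMM-normalized CPM of each of the 8 genes (vertical axes, linear from 0, a scale of its own for each gene) in saline (circles) and ADC/cmLumiOpto samples (squares), with replicate numbers and a line at the mean of 2 samples. Both treated points lie below both saline points for Hmga1, Hmga2, Igf2bp1, Igf2bp2 and Myc, the groups overlap for Igf2bp3 and Mycn, and Lin28b has 0 counts in saline.

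Of the 7 genes that passed the filter, 5 were lower in both treated samples than in either saline sample, namely Hmga1, Hmga2, Igf2bp1, Igf2bp2 and Myc. Of all tested genes, 28.8% had this pattern and 57% had groups that did not overlap in either direction. The median log2 fold change of the 7 was -0.82, beside 0.028 for all tested genes. Since the genes were picked with these counts known, nothing is read from that difference. Across all genes, 0 (0%) had an adjusted p under 0.05 by the quasi-likelihood test of edgeR. At an unadjusted p under 0.05 the same test gave 3553 genes (23.2%), while DESeq2 gave 1332 and the edgeR exact test 1170 at an adjusted p under 0.05.

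Hmga1 (ENSMUSG00000046711) encodes the more widely expressed HMGA protein. Its positions in the count table, whose build the submitters' processing notes give as mm39, are chromosome 17, 27775471 to 27782648, plus strand. Levels were 403 and 584 CPM in saline replicates 1 and 2 and 259 and 237 CPM in ADC/cmLumiOpto replicates 1 and 2. The treated samples lay close together, below both saline samples, and saline replicate 2 was the highest. Group means were 493 ± 128 CPM (SD, n = 2) and 248 ± 15.4 CPM (SD, n = 2), giving a log2 fold change of -0.99 ± 0.22 (SE, standard error of the fit).

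The value of Hmga1 cannot be separated from that of Hmga1b (ENSMUSG00000078249, chromosome 11), an intronless copy. In the best alignment of their annotated transcripts, 1599 bases were identical and 3 differed, and 89.0% of the 50-base windows of Hmga1b occurred in an Hmga1 transcript. Hmga1b was listed with 7267 and 9787 counts in saline and 5108 and 5486 after treatment, against 6446 and 8657, then 4570 and 4865, for Hmga1. The ratio of Hmga1b to Hmga1 counts stayed between 1.118 and 1.131 in the 4 samples. With the counts of both genes summed, the log2 fold change was -0.996 ± 0.22 (SE).

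Hmga2 (ENSMUSG00000056758; mm39 chromosome 10, 120197180 to 120312374, minus strand) encodes the HMGA protein most restricted to the embryo and had the most let-7 matches per kilobase of 3′ UTR among the 8 genes, 1.33. It stood at 150.4 and 283 CPM in the saline samples and at 109 and 101 CPM in the treated samples. Saline replicate 2 was far above the other 3 samples, and saline replicate 1 lay closer to the treated samples than to it. The group means were 217 ± 93.7 CPM (SD, n = 2) and 105 ± 5.78 CPM (SD, n = 2), giving a log2 fold change of -1.05 ± 0.30 (SE). Without saline replicate 2 the log2 fold change was -0.52, and without saline replicate 1 it was -1.45. A pseudogene, Hmga2-ps1, was listed with 284 and 372 counts in saline and 309 and 368 after treatment. Its ratio to Hmga2 counts varied from 0.0886 to 0.178, unlike that of the Hmga1 pair.

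Igf2bp2 (ENSMUSG00000033581; mm39 chromosome 16, 21877759 to 21982049, minus strand) is the family member with the broadest adult expression and an established HMGA2 target. Pooled over both groups, its spread between replicates on the log2 scale was the smallest of the 7 genes tested, although Hmga1 and Hmga2 were more even within the treated group. The saline samples had 113 and 112 CPM and the treated samples 60.0 and 66.6 CPM, so the gap between groups was many times the gap within either. The means were 112 ± 0.209 CPM (SD, n = 2) and 63.3 ± 4.67 CPM (SD, n = 2), giving a log2 fold change of -0.83 ± 0.16 (SE) whose range with 1 sample left out was -0.91 to -0.76.

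Igf2bp1 (ENSMUSG00000013415; mm39 chromosome 11, 95847989 to 95896766, minus strand) encodes the member best known for binding the Myc messenger. It was about an order of magnitude less abundant, at 146 and 119 counts in saline and 95 and 89 counts after treatment. In CPM these were 9.13 and 8.02 against 5.38 and 4.34, and the groups did not overlap. The log2 fold change was -0.82 ± 0.31 (SE), and -0.57 once the trend of the values with gene length had been removed. Removing that trend brought Igf2bp2 to -0.66 and Hmga2 to -0.90, whereas Hmga1 went to -1.20 and Myc to -0.83.

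Igf2bp3 (ENSMUSG00000029814; mm39 chromosome 6, 49062157 to 49191891, minus strand), the most strictly oncofetal of the 3, had 17 and 9 counts in saline and 25 and 10 after treatment. The groups overlapped, and the log2 fold change of 0.17 ± 0.72 (SE) spanned -0.77 to 0.75 when samples were left out in turn.

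**Figure D2:**
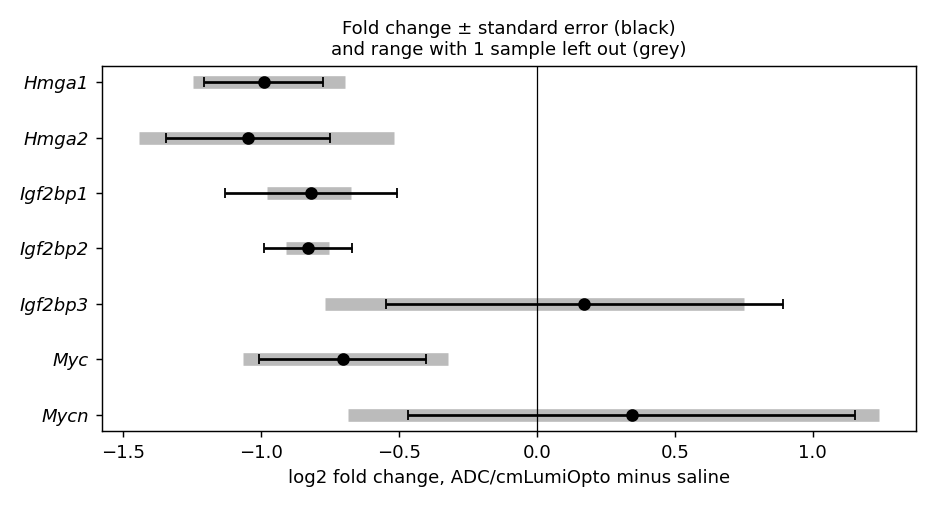
Log2 fold change of ADC/cmLumiOpto against saline (horizontal axis) for the 7 genes that passed the filter, as black points with the standard error, and the range with 1 sample left out in turn in grey. The grey bars stay below 0 for Hmga1, Hmga2, Igf2bp1, Igf2bp2 and Myc, are shortest for Igf2bp2, and cross 0 for Igf2bp3 and Mycn.

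Lin28b (ENSMUSG00000063804; mm39 chromosome 10, 45252716 to 45362491, minus strand), the LIN28 paralog found in many tumors, had 0 counts in both saline samples, which allows up to 0.188 and 0.202 CPM. The treated samples had 3 and 8 counts, and the gene did not pass the filter. No fold change is given, since one treated sample was at the floor. Lin28a, its paralog of pluripotent cells, had 8 and 0 counts in saline and 13 and 94 after treatment. For Lin28a the log2 fold change of 3.35 ± 1.29 (SE; edgeR's quasi-likelihood test, unadjusted p = 0.0375, adjusted p = 0.191) had an unadjusted p under 0.05 in only 2 of 4 fits with 1 sample left out. Without ADC/cmLumiOpto replicate 2 it was 1.498, and the unadjusted p in edgeR was 0.358. Without saline replicate 1 the only saline sample had 0 counts, and no fold change is given.

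Myc (ENSMUSG00000022346; mm39 chromosome 15, 61857240 to 61862223, plus strand) encodes the transcription factor that promotes ribosome production and growth. Levels were 132 and 213 CPM in the saline samples and 82.6 and 129 CPM in the treated samples. The groups only just kept apart, since saline replicate 1 and ADC/cmLumiOpto replicate 2 differed by a few CPM. The means were 173 ± 56.9 CPM (SD, n = 2) and 106 ± 32.7 CPM (SD, n = 2), giving a log2 fold change of -0.71 ± 0.30 (SE). Without saline replicate 2 the log2 fold change was -0.32, and without ADC/cmLumiOpto replicate 2 it was -1.07.

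Mycn (ENSMUSG00000037169; mm39 chromosome 12, 12986094 to 12991915, minus strand), the neural and embryonic paralog, had 15 and 5 counts in saline and 7 and 25 after treatment. The groups overlapped, and the log2 fold change of 0.34 ± 0.81 (SE) spanned -0.69 to 1.24 when samples were left out in turn. Mycl, another paralog, was higher after treatment, at 3.13 and 2.29 CPM in saline against 7.59 and 4.49 CPM. Its log2 fold change was 1.15 ± 0.43 (SE; edgeR's quasi-likelihood test, unadjusted p = 0.0325, adjusted p = 0.181), and 0.73 without ADC/cmLumiOpto replicate 1, with an unadjusted p of 0.200 in edgeR.

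Among the 5 better-expressed genes, Hmga1, Hmga2 and Myc were highest in saline replicate 2, while Igf2bp1 and Igf2bp2 were nearly level between the saline samples. As the Euclidean distance between log2 CPM profiles centred on the mean of the 4 samples, Hmga1 and Hmga2 lay 0.266 apart and Igf2bp1 and Igf2bp2 0.335 apart. Hmga2 and Igf2bp1 were 0.805 apart. Hmga1 was nearer to Igf2bp2 (0.449) than to Myc (0.613), and Myc lay about equally far from Igf2bp2 (0.610), Hmga1 and Hmga2 (0.620). Among all other tested genes, the profiles nearest to Hmga2 were those of Hao1 (0.0913) and Tnn (0.0978). Nearest to Hmga1 were Hmga1b (0.0125) and the receptor gene Ephb2 (0.0481), and nearest to Igf2bp2 were the splicing regulator Ptbp1 (0.0291) and Ints7 (0.0381), a subunit of Integrator. With 4 samples, these distances describe the libraries and say nothing about shared regulation.

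**Figure D3:**
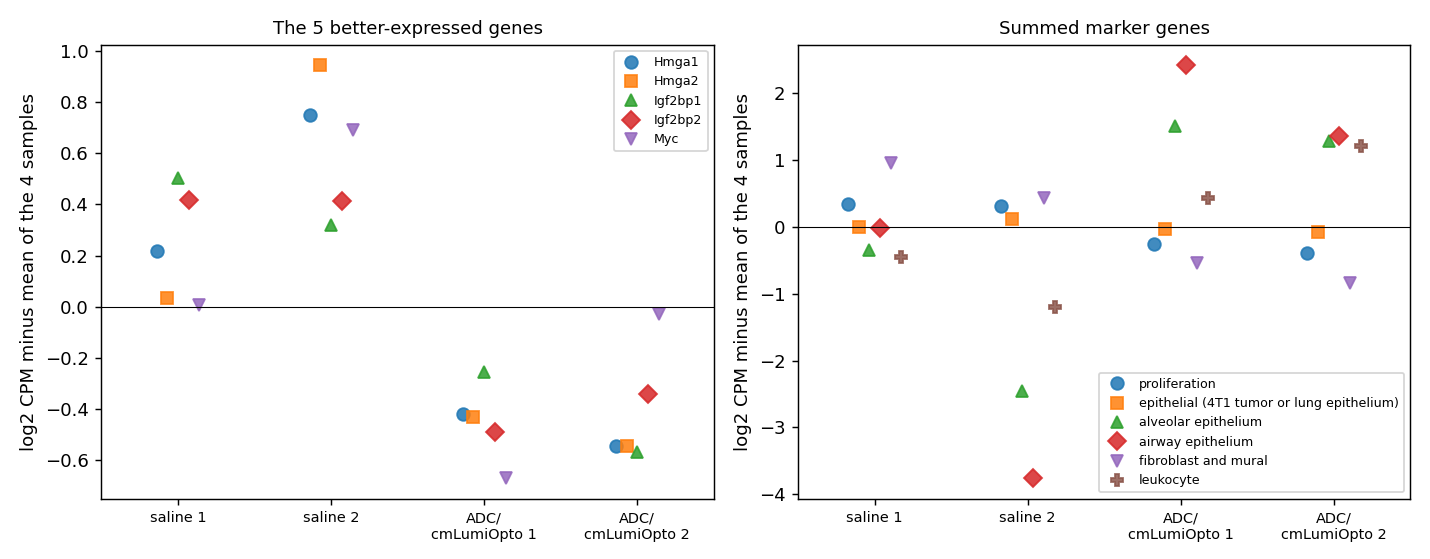
Log2 CPM minus its mean over the 4 samples (vertical axes) for 5 genes (left) and for the summed markers of 6 cell groups (right), by sample. Saline replicate 2 holds the highest Hmga1, Hmga2 and Myc and the lowest alveolar and airway marker sums, 388 and 86.6 CPM.

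The sample with the highest Hmga1, Hmga2 and Myc, saline replicate 2, also had the lowest alveolar, airway and leukocyte marker sums. Leukocyte markers (13 genes) summed to 3155 and 1866 CPM in the saline samples and 5806 and 9923 CPM in the treated samples. All 10 alveolar and all 8 airway markers were higher in both treated samples than in either saline sample, as were 28.1% of all tested genes. Proliferation markers (12 genes) summed to 1590 and 1554 CPM in saline and 1044 and 954 CPM after treatment. Fibroblast and mural markers (10 genes) summed to 5281 and 3694 CPM against 1869 and 1521 CPM. The log2 fold change was below 0 for 11 proliferation markers and above 0 for 1. Of the fibroblast and mural markers, 8 were below 0 and 2 above. Endothelial markers (9 genes) summed to 609 and 433 CPM against 677 and 1040 CPM, and erythroid markers (5 genes) to 1110 and 352 CPM against 1871 and 2075 CPM. None of the alveolar, airway, proliferation or fibroblast and mural markers was at 0 in any sample. The part of these shifts in the values of the 8 genes was not tested. In bulk samples, fewer cells of a type and less RNA per cell cannot be told apart.

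Pathway genes around these families were examined as 9 lists with 238 genes found in the table and 218 tested, the 8 genes left out. In the lists together, 54 genes were lower and 16 higher at an unadjusted p under 0.05 in edgeR's quasi-likelihood test, and 0 passed an adjusted p of 0.05. Among all tested genes, 12.2% were lower and 11% higher at the same unadjusted threshold. In either direction the share was 32.1% of the 218 list genes and 23.2% of all tested genes. The lists were written with earlier results of these data known. The median log2 fold change of the 218 genes was -0.23, beside 0.028 for all tested genes. With the gene length trend removed, 50 list genes met the unadjusted threshold. All tested genes that met it also became fewer, 3041 against 3553 in the main fit. The count of 70 at the unadjusted threshold went to 34 without saline replicate 2 and to 44 without ADC/cmLumiOpto replicate 1.

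**Figure D4:**
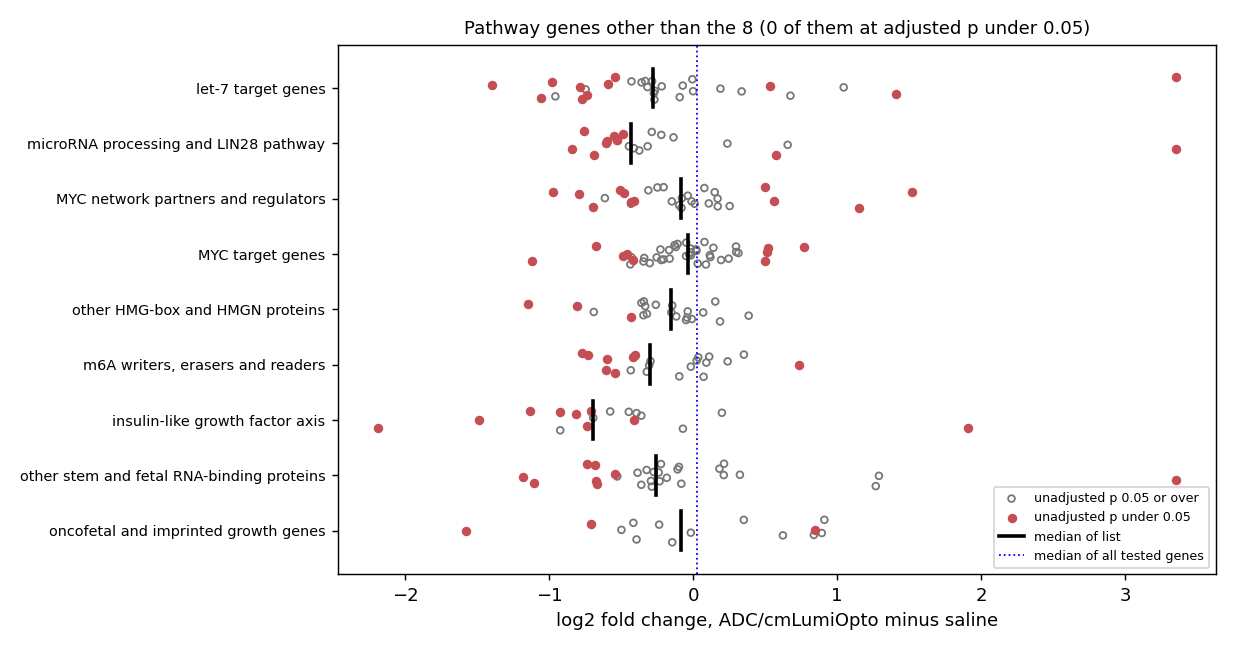
Log2 fold change of ADC/cmLumiOpto against saline (horizontal axis) for every tested gene of the 9 lists, filled where the unadjusted p of edgeR was under 0.05, with the median of each list as a black bar and that of all tested genes as a dotted line. List medians run from -0.70 for the insulin-like growth factor axis to -0.039 for MYC target genes, and the point far to the right in 3 lists is Lin28a.

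Of 30 tested genes known as let-7 targets, 8 were lower and 4 higher at an unadjusted p under 0.05. In all this was 40%, beside 23.2% of all tested genes, and the median log2 fold change was -0.28. The count of 12 went to 6 without saline replicate 2. Thbs1, which encodes thrombospondin, stood at 640 and 860 CPM in saline and at 302 and 418 CPM after treatment (log2 fold change -1.06, standard error 0.24), and it held no match to the seed in its 3′ UTR. The collagen gene Col1a2 had a log2 fold change of -1.40 ± 0.28 (SE). Col1a2 is itself among the fibroblast and mural markers summed above, so those sums are no separate evidence. The part of cell content in the values of this list was not tested. Fas, a death receptor gene also expressed by leukocytes, went the other way, with 192 and 138 counts against 478 and 604 (log2 fold change 1.41, standard error 0.23). These 3 genes had unadjusted p values of 0.00332, 0.00203 and 6.40e-04 and an adjusted p of 0.116 each in edgeR's quasi-likelihood test. Of the 32 genes of this list, 26 held at least 1 seed match, beside 9.02% of all annotated 3′ UTRs. The list was made of known let-7 targets, so this count is no separate evidence, and lengths were not matched.

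Among genes of microRNA processing and the LIN28 pathway, 9 of 20 tested were lower and 2 higher at an unadjusted p under 0.05. These made up 55%, beside 23.2% of all tested genes, and the median log2 fold change of the list was -0.43. The count of 11 went to 3 without saline replicate 2, and to 6 without saline replicate 1, without ADC/cmLumiOpto replicate 1 or with the gene length trend removed. Ago2, which encodes the Argonaute protein that carries microRNAs, stood at 253 and 229.6 CPM in saline and at 124 and 145 CPM in the treated samples. Its log2 fold change was -0.84 ± 0.17 (SE), and -0.52 with the gene length trend removed. Khsrp, whose protein promotes let-7 maturation, had a log2 fold change of -0.76 ± 0.16 (SE), and Dis3l2, the exonuclease that degrades uridylated let-7 precursors, one of -0.69 ± 0.20 (SE). Unadjusted p values in edgeR's quasi-likelihood test were 0.00189, 0.00253 and 0.0119, and adjusted values 0.116, 0.116 and 0.136. Without ADC/cmLumiOpto replicate 1 the unadjusted p of Dis3l2 in edgeR was 0.0515. Trim71, an embryonic let-7 target, had 5 and 1 counts in saline and 1 in each treated sample, and was not tested.

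Of 29 MYC partners and regulators, with a median log2 fold change of -0.082, 7 were lower and 4 higher at an unadjusted p under 0.05. Together they were 37.9% of the list, beside 23.2% of all tested genes. These 11 genes became 2 without saline replicate 2, 4 without ADC/cmLumiOpto replicate 1, and 7 without saline replicate 1 or with the gene length trend removed. The ubiquitin ligase gene Huwe1 had a log2 fold change of -0.79 ± 0.18 (SE), which went to -0.38 with the gene length trend removed. Ep400, a subunit of the TIP60 complex, had one of -0.51 ± 0.16 (SE), which went to -0.18. In edgeR's quasi-likelihood test the unadjusted p values of Huwe1 and Ep400 were 0.00374 and 0.0177, with adjusted values of 0.117 and 0.148. Without saline replicate 2 these unadjusted p values in edgeR became 0.0534 and 0.159. Max, the obligate partner of MYC, had 85.3 and 71.9 CPM in saline and 82.3 and 94.3 CPM after treatment, overlapping between groups (log2 fold change 0.17, standard error 0.18).

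Among MYC target genes, 5 of 42 were lower at an unadjusted p under 0.05 and 4 higher, 21.4% in all beside 23.2% of all tested genes. The median log2 fold change was -0.039, beside 0.028 for all tested genes. Of the count of 9, the fits gave 2 without saline replicate 2, 3 without saline replicate 1, and 4 without ADC/cmLumiOpto replicate 1 or with the gene length trend removed. The pyrimidine synthesis gene Cad stood at 137 and 125 CPM in saline and at 75.0 and 88.8 CPM after treatment (log2 fold change -0.68, standard error 0.17). Hexokinase 2 (Hk2) had 280.1 and 151 CPM in saline and 96.1 and 102 CPM after treatment, and its log2 fold change of -1.12 became -0.62 without saline replicate 1. For Ncl, which encodes nucleolin, the log2 fold change was -0.49 ± 0.16 (SE), and -0.23 with the gene length trend removed. The 3 genes had unadjusted p values of 0.00654, 0.00762 and 0.0222 and adjusted values of 0.123, 0.123 and 0.159 in edgeR's quasi-likelihood test. The unadjusted p of Ncl in edgeR was 0.200 without saline replicate 2.

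Of 21 other tested genes for HMG-type proteins, 3 were lower and 0 higher at an unadjusted p under 0.05 (14.3%, beside 23.2% of all tested genes), and the median log2 fold change was -0.15. The transcription factor genes Sox4 and Sox9 were among the 3. Sox4 stood at 391 and 461 CPM in saline and at 209 and 175 CPM after treatment (log2 fold change -1.15, standard error 0.18), and Sox9 had a log2 fold change of -0.81 ± 0.16 (SE). Ssrp1, a subunit of the histone chaperone FACT, had one of -0.43 ± 0.16 (SE). Unadjusted p values were 5.01e-04, 0.00200 and 0.03 in edgeR's quasi-likelihood test, and adjusted values 0.116, 0.116 and 0.176. Without saline replicate 2 the unadjusted p of Ssrp1 in edgeR was 0.192. Hmgb1, the alarmin released by dying cells, was at 82.1 and 83.4 CPM in saline and 79.7 and 69.8 CPM after treatment (log2 fold change -0.15, standard error 0.16, edgeR adjusted p = 0.617). Hmgb2 was at 196 and 230.1 CPM against 289 and 267 CPM (log2 fold change 0.39, standard error 0.17, edgeR adjusted p = 0.227).

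IGF2BP proteins act as readers of m6A, a methyl mark on messenger RNA. Of 21 other genes of that system, 7 were lower and 1 higher at an unadjusted p under 0.05. These made up 38.1%, beside 23.2% of all tested genes. That count of 8 was 4 without saline replicate 2 or ADC/cmLumiOpto replicate 1, and 5 without saline replicate 1, without TMM or with upper-quartile scaling. Fto, a demethylase gene, stood at 113 and 140.5 CPM in saline and at 70.7 and 77.6 CPM after treatment, with a log2 fold change of -0.77 ± 0.18 (SE), and -0.45 with the gene length trend removed. The reader gene Prrc2a and the writer subunit gene Rbm15b had log2 fold changes of -0.73 and -0.61 (standard errors 0.17 and 0.16). In edgeR's quasi-likelihood test, Fto, Prrc2a and Rbm15b had unadjusted p values of 0.00460, 0.00428 and 0.00703 and adjusted values of 0.123, 0.121 and 0.123. Mettl3, the catalytic writer, was the gene that was higher, at 11.3 and 8.22 CPM against 18.2 and 14.1 CPM (log2 fold change 0.73, edgeR unadjusted p = 0.0396, adjusted p = 0.196). It was singled out after its values had been seen.

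The insulin-like growth factor axis had the lowest list median, -0.70, with 8 of 17 tested genes lower and 1 higher at an unadjusted p under 0.05. This was 52.9%, beside 23.2% of all tested genes. The count of 9 was 14 with no filter beyond 1 count in total. Pappa, whose protease frees growth factor from its binding proteins, was at 20.3 and 25.3 CPM in saline and at 3.80 and 6.14 CPM after treatment, a log2 fold change of -2.19 ± 0.32 (SE). Among the binding proteins, Igfbp3 was lower (log2 fold change -0.93, standard error 0.18) and Igfbp6 higher (log2 fold change 1.91, standard error 0.30). The receptor gene Igf1r, which holds 2 let-7 seed matches, went from 133 and 153 CPM to 78.8 and 92.9 CPM (log2 fold change -0.74, standard error 0.18; -0.38 with the gene length trend removed). Pappa, Igfbp6, Igfbp3 and Igf1r had unadjusted p values of 3.42e-04, 5.14e-04, 0.00179 and 0.00493 in edgeR's quasi-likelihood test. Adjusted values in edgeR were 0.116 for the first 3 and 0.123 for Igf1r. Igf2, the messenger that gave the IGF2BP family its name, had only 1 and 5 counts in saline and 0 in both treated samples, and was not tested.

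Other stem cell and fetal RNA-binding proteins included 7 lower and 1 higher gene of 28 tested at an unadjusted p under 0.05. Their share was 28.6%, beside 23.2% of all tested genes, and the median log2 fold change of the list was -0.26. Without saline replicate 2 the count of 8 was 5. Mex3a, a KH-domain protein of intestinal progenitors, was at 112 and 85.3 CPM in saline and 41.4 and 50.5 CPM after treatment (log2 fold change -1.10, standard error 0.21). The splicing factor gene Rbfox2 and the Musashi gene Msi2 had log2 fold changes of -0.68 and -0.67 (standard error 0.16 each), and that of Msi2 went to -0.41 with the gene length trend removed. Their unadjusted p values in edgeR's quasi-likelihood test were 0.00136, 0.00450 and 0.00495, and adjusted values 0.116, 0.123 and 0.123. For Rbfox2 the unadjusted p in edgeR was 0.0540 without saline replicate 2.

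Of oncofetal and imprinted growth genes, 14 of 22 were tested, with 2 lower and 1 higher at an unadjusted p under 0.05. That was 21.4% of the 14, beside 23.2% of all tested genes. The count of 3 was 1 without ADC/cmLumiOpto replicate 2 or with the gene length trend removed, and 6 with no filter beyond 1 count in total or with a replicate block. H19, the imprinted noncoding RNA that neighbours Igf2 and is known to bind let-7, was at 167 and 265 CPM in saline and at 73.3 and 71.1 CPM after treatment. As for Hmga1 and Hmga2, its highest value was in saline replicate 2 and the treated samples lay close together. The log2 fold change of H19 was -1.58 ± 0.25 (SE; edgeR's quasi-likelihood test, unadjusted p = 4.75e-04, adjusted p = 0.116), between -1.89 and -1.21 with each sample left out. Grb10 had a log2 fold change of -0.71 (edgeR, unadjusted p = 0.0289, adjusted p = 0.174), and -0.37 without saline replicate 1, with an unadjusted p of 0.234 in edgeR. Gpc3, which encodes glypican-3, had a log2 fold change of 0.85 (edgeR, unadjusted p = 0.0347, adjusted p = 0.185), and 0.45 without saline replicate 2, with an unadjusted p of 0.129 in edgeR.

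Across all other tested genes with an annotated 3′ UTR, the share that was lower after treatment was larger with more let-7 seed matches. It was 48.8% of 12041 genes with 0 matches, 53.8% of 1226 with 1, 58.8% of 148 with 2 and 76.2% of 21 with 3 or more, a class that rests on few genes. Median log2 fold changes in these classes were 0.015, -0.049, -0.074 and -0.48. Their median 3′ UTR lengths also increased, from 1064 bases to 2183, 3522 and 4262 bases. Among genes with 3′ UTRs of 1832 bases or more, 61.8% of 3602 genes without a match and 60.8% of 877 genes with a match were lower. The medians of these genes were -0.14 without and -0.13 with a match. All genes with 1 match or more were pooled here, and median 3′ UTR lengths still differed, at 2802.5 bases without and 3508 with a match. What underlies the shares in these classes was not tested.

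**Figure D5:**
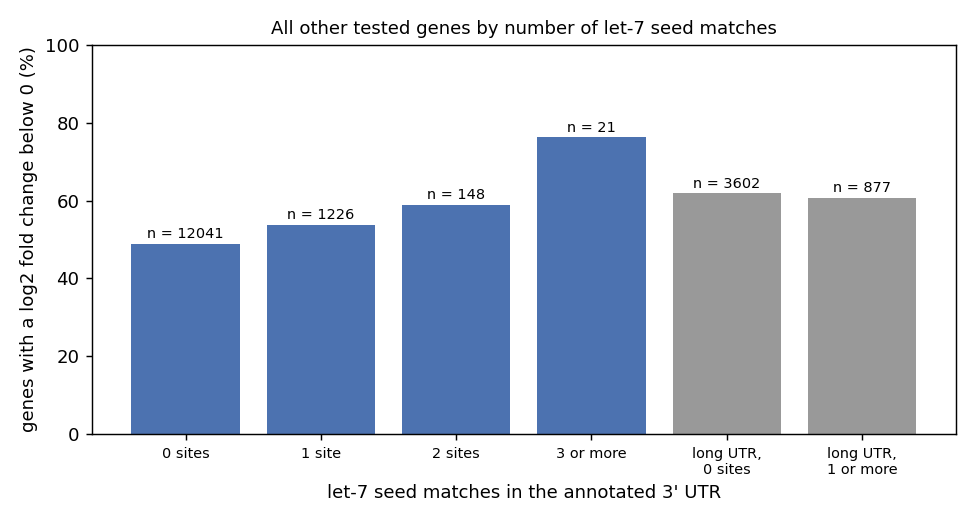
Share of tested genes with a log2 fold change below 0 (vertical axis, percent) by number of let-7 seed matches in the 3′ UTR, the 8 genes left out, with the number of genes over each bar. Blue bars go from 48.8% with 0 matches to 76.2% with 3 or more, and the grey bars, limited to 3′ UTRs of 1832 bases or more, stand at 61.8% without and 60.8% with a match.

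The E-box CACGTG, the sequence bound by MYC and MAX and its own reverse complement, was searched in RefSeq promoters (GRCm38.p6, 250 bases before to 50 after the start). Of the 8 genes, 6 had an entry, and Igf2bp1 and Myc had none. Igf2bp3 held 2 matches and Lin28b 1, while the entries of Hmga1, Hmga2, Igf2bp2 and Mycn held 0. The motif was present in 7.15% of 32851 promoters. Both genes with a match were near the floor of detection in these samples. The 4 genes without one included the abundant Hmga1, Hmga2 and Igf2bp2 and the scarce Mycn. Whether MYC acts on any of these genes was not tested.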

How the data were processed

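Poly(A) RNA from 2 saline and 2 ADC/cmLumiOpto samples was sequenced (Illumina HiSeq). The authors deposited raw read counts per gene, without normalization, after alignment with HISAT2. The methods name GRCm38/mm10 and the submitters' processing notes mm39, the program that counted reads is not given in the sources used here, and strand use is not stated. Positions are as listed in the table. Sequences were taken from GENCODE M21 and RefSeq (GRCm38), matched by gene.

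Fits used edgeR 4.0.16 under R 4.3.3, with filterByExpr (minimum count 10, minimum total 15), TMM, estimateDisp, glmQLFit and glmQLFTest, two-sided, with Benjamini-Hochberg adjustment over 15320 genes. Standard errors are the log2 fold change divided by the square root of F, with a prior count of 0.125. Profile distances used log2(CPM + 0.5). DESeq2 1.42.0 and the edgeR exact test were alternatives. All were run on simulated counts in which every gene had the same relative variation between samples. That run checked the code and cannot decide between the tests in these data. The members and lists were chosen with earlier results of these data known. Named list genes are the 3 with the smallest p per list, and Lin28a, Mycl, Max, Igf2, Igf1r, Hmgb1, Hmgb2 and H19. A gene that this rule also gave is not reported here. Trim71, Hmga1b and Hmga2-ps1 were added after their values had been seen. Of 315 listed genes, 314 were found by symbol. Total counts were between 15263375 and 19675436 per sample.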

Additional observations from a re-analysis of the deposited data

How the results depend on the processing

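The median log2 fold change of the members that passed the filter stayed below 0 under every alternative run. It was between -0.91 and -0.52 with 1 sample left out and -0.66 with the gene length trend removed, while the median of all tested genes moved between -0.018 and 0.11 (upper-quartile scaling). Hmga1, Hmga2, Igf2bp1, Igf2bp2 and Myc were lower under every alternative run, and Igf2bp3 and Mycn changed direction when single samples were left out. At an adjusted p under 0.05 the quasi-likelihood test called 0 genes, and the number was 1332 in DESeq2, 1170 in the edgeR exact test and 2259 with no filter beyond 1 count in total, and from 0 to 218 with 1 sample left out, where the lone sample is assumed to vary like the other group. The replicate number as a block gave 607 genes, although same-numbered samples share only a number (correlation of their deviations from the group means 0.0844), and 73 genes of the pathway lists at an unadjusted p under 0.05. The cause of these differences was not tested. Genes at an unadjusted p under 0.05 numbered from 1687 to 3654 with 1 sample left out, the lowest without saline replicate 2, and those of the pathway lists from 34 to 69. Of 30 genes outside the 8 that met the naming rule with an unadjusted p under 0.05, 20 stayed under it in all fits with 1 sample left out. Depth limited Igf2bp3, Mycn and Lin28b, with at most 25 counts in any sample.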
